A study of Mus musculus with 3 samples.

Results

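The tumour suppressor p53 (Trp53) and 9 genes tied to it were followed in immune cells of newborn mouse liver. The 10 genes, of 19059 in the deposited matrices, were taken by symbol: Trp53inp1, Trp53, Mdm2, Cdkn1a, Ccng1, Bax, Bbc3, Pmaip1, Sesn2 and Zmat3. Trp53inp1 was chosen from its measured level, already known to be higher in the KO library, so its values below are a description and support nothing further. The question was whether the other 9 genes followed it. All mice were at postnatal day 0, and viable CD45+ cells were sorted from liver and fixed before gene-specific probes captured their RNA. The KO mice carried pex2-/-, the Het mice pex2-/+ and the WT mice pex2+/+. Pex2 encodes a peroxisomal membrane protein of the ubiquitin ligase complex that recycles import receptors. Each genotype had 1 library, and how many animals went into it is not stated in the labels. With 1 library per genotype no difference between them could be tested, and every interval below covers counting error only.

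The p53 protein is a transcription factor that damage and other stresses stabilise. Its targets hold the cell cycle (Cdkn1a), start apoptosis (Bax, Bbc3, Pmaip1), adjust metabolism and autophagy (Sesn2, Trp53inp1) and switch p53 off again (Mdm2). Several of these genes also answer to other factors, so a level of 1 target is no measure of p53 activity.

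The libraries differed in depth and, in part, from their labels. There were 8245 cell barcodes in KO, 8000 in the library labelled Het and 9600 in that labelled WT. Their unique molecular identifiers (UMIs, each standing for 1 captured probe molecule) came to 186295183, 144589956 and 96629431. Pex2 itself had 2 UMIs in KO cells, 7704 in the library labelled Het and 2283 in that labelled WT. That is 0.0107, 53.3 and 23.6 CPM (UMIs scaled to a library total of 1000000), so the order of the libraries labelled Het and WT went against their labels. The Y-linked gene Ddx3y had 3, 2 and 7956 UMIs in the KO library and those labelled Het and WT, so sex and genotype cannot be told apart between KO and labelled WT. B-lineage markers summed to 334, 787 and 1097 CPM in that order and macrophage markers to 232, 195 and 204 CPM. Hepatocyte markers summed to 3.99 to 5.72 CPM and T cell markers to 166 to 226 CPM. No full barcode was shared between libraries, and 3008 of 22695 barcode sequences of 16 bases occurred in more than 1 of them.

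Over all sorted cells, Trp53inp1 stood alone among the 10 genes in being higher in KO. Mdm2, the ubiquitin ligase that p53 induces and that in turn marks p53 for destruction, was level across the libraries in CPM. The apoptosis genes Bax and Bbc3 were lower in KO. A gene is called higher or lower here when the KO level was at least 1.5-fold above or below both other libraries. Genes entered the comparison when they averaged 10 CPM or more over the libraries and had 30 UMIs or more in sum. Of 8327 genes that passed, 2.76% were called higher and 13.4% lower (0.624% and 4.67% at 2-fold). Of the 10 genes, 9 passed; 1 was called higher, Trp53inp1, and 2 lower, Bax and Bbc3. Over all genes tested the median log2 ratio was -0.16 for KO over labelled Het and -0.13 for KO over labelled WT.

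Trp53inp1 (ENSMUSG00000028211, GRCm38 chromosome 4, 11156431 to 11174379, plus strand) encodes a stress-induced protein that binds LC3-family proteins of autophagosomes. It had 42678 UMIs in KO, against 12548 in the library labelled Het and 9095 in that labelled WT, or 229, 86.8 and 94.1 CPM. KO lay well above both other libraries, which were close to each other. The level was 2.64-fold that of labelled Het (95% interval 2.59 to 2.69) and 2.43-fold that of labelled WT (2.38 to 2.49), while labelled Het over labelled WT was 0.922. By the smaller of the KO log2 ratios it was number 20 of the 8327 genes.

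Trp53 was at 70.1 CPM in KO, 111 CPM in labelled Het and 98.0 CPM in labelled WT. It was lowest in KO, by less than the 1.5-fold rule against labelled WT. Mdm2 was at 108, 107 and 109 CPM in the same order, with a KO ratio of 1.01 over labelled Het (0.987 to 1.03) and 0.988 over labelled WT (0.965 to 1.01). The intervals leave room for a difference of a few percent by counting error alone. The choice of scaling moved Mdm2 further. Over 6 alternatives its log2 ratios ran from 0.017 to 0.351 over labelled Het and from -0.015 to 0.264 over labelled WT. It met the rule under none of them.

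Of the cell cycle targets, Cdkn1a, which encodes the kinase inhibitor p21, was at 28.2 CPM in KO, 40.2 CPM in labelled Het and 53.8 CPM in labelled WT. Its KO level was 0.701 of labelled Het and 0.524 of labelled WT, and it missed the rule against labelled Het. When classes were weighted equally, its log2 ratios were -0.59 and -1.06, and it was then called lower. Ccng1, which encodes cyclin G1, was at 75.3, 71.8 and 59.3 CPM, slightly above both in KO.

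Of the apoptosis targets, Bax, the pore-forming protein of mitochondria, was at 71.2 CPM in KO, 118 CPM in labelled Het and 132 CPM in labelled WT. Bbc3, the BH3-only activator PUMA, was at 8.01, 14.4 and 14.7 CPM. Both were clearly lowest in KO, while the libraries labelled Het and WT lay close together. The KO level of Bax was 0.605 of labelled Het (0.591 to 0.619) and 0.541 of labelled WT (0.528 to 0.554), and that of Bbc3 was 0.557 (0.520 to 0.595) and 0.545 (0.506 to 0.586). These calls were lost under 3 other scalings: with TMM factors the log2 ratios of Bax were -0.38 and -0.61 and those of Bbc3 -0.50 and -0.59. With size factors they were -0.42 and -0.61 for Bax and -0.54 and -0.60 for Bbc3, and with cells thinned to 3000 UMIs -0.56 and -0.71 for Bax and -0.28 and -0.52 for Bbc3. Pmaip1, the BH3-only protein NOXA, was at 9.10 CPM in KO, 16.9 CPM in labelled Het and 10.6 CPM in labelled WT, so the library labelled Het stood above the other pair.

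The stress targets besides Trp53inp1 had the same shape as Pmaip1. Sesn2, which encodes sestrin 2, an inhibitor of mTORC1 signalling, was at 12.4, 24.5 and 14.7 CPM. Zmat3, an RNA-binding zinc finger protein, was at 2.94, 6.60 and 3.87 CPM and was the gene that did not pass the filter. In both, labelled Het was highest and KO lay a little below labelled WT.

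**Figure D1:**
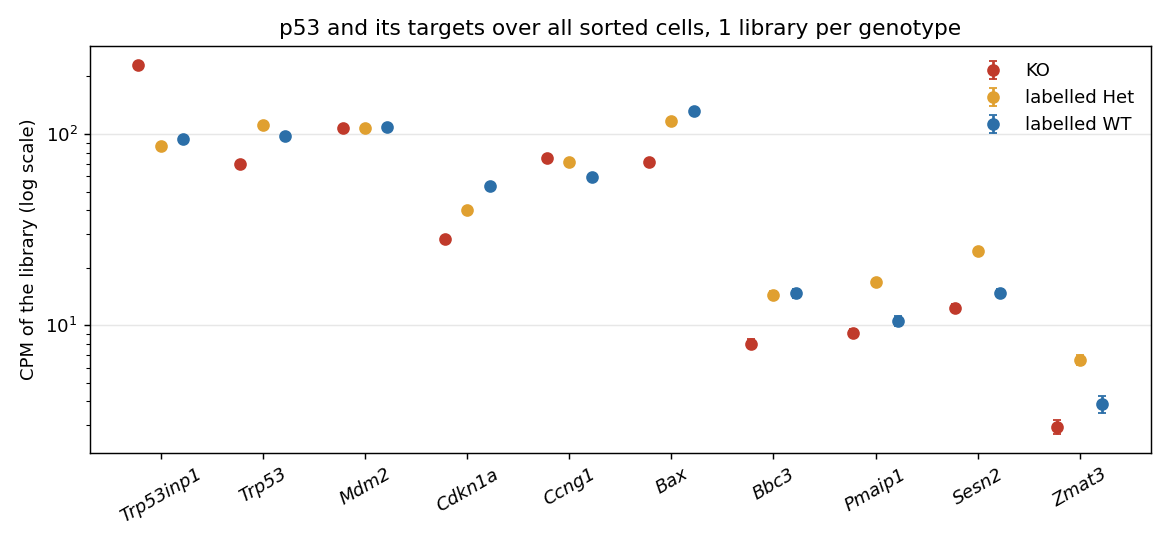
Level of each of the 10 genes over all sorted cells, in CPM of the library on a log scale, with KO, labelled Het and labelled WT from left to right as 1 point per library; bars are 95% Poisson intervals, often smaller than the point. Trp53inp1 is the gene whose KO point, at 229 CPM, stands far above the other points, and Bax and Bbc3 have KO points below both.

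The promoters of 7 of the 10 genes were matched by symbol in RefSeq sequences of the GRCm38.p6 build, and 250 bases before each start were searched for the p53 half-site, the 10-base palindromic consensus whose letters read alike on both strands. Shown are those of 3 targets of different role and direction, with matches in capitals: Cdkn1a (chr17:29090729-29090978, plus strand) and Bax (chr7:45466899-45467148, minus strand), which had lower KO levels, and Ccng1 (chr11:40755287-40755536, minus strand), which did not.
Cdkn1a: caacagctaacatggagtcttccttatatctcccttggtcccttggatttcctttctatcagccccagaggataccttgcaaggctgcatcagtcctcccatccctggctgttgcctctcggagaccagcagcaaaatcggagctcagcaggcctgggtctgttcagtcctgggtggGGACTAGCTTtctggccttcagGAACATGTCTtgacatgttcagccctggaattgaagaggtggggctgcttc
Bax: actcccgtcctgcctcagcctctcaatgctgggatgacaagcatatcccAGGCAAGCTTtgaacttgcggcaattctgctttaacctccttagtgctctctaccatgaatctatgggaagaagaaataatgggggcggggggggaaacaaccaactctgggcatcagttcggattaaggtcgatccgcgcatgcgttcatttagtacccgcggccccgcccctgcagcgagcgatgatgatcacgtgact
Ccng1: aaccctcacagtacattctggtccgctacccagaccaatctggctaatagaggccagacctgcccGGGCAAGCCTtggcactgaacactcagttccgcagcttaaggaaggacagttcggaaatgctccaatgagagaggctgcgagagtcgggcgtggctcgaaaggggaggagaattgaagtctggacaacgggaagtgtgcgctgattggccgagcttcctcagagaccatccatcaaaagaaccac
The Cdkn1a window held 2 matches and the windows of Bax and Ccng1 1 each, as did those of Mdm2 and Trp53. The windows of Sesn2, Bbc3 and a second Cdkn1a start held none. Of 32851 RefSeq promoter windows of this length, 2341 (7.13%) held at least 1 match. A match describes the letters only.

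A sum over all cells mixes the level within a class of cells with the share of that class, so the 10 genes were taken within classes gated on markers. Classes were used when each library held at least 50 cells: 3 stages of neutrophils, monocytes, macrophages, B-lineage and erythroid cells. The precursor stage was gated on Mpo, Elane, Prtn3, Ctsg and Ms4a3, and held 418 KO cells, 450 of labelled Het and 441 of labelled WT. The granule stage (Camp, Ltf, Ngp and others) held 4730, 4514 and 5508 cells, and the mature stage (Cxcr2, Il1b, Mmp9 and others) 558, 396 and 448. There were 835, 563 and 587 monocyte-like cells, 105, 76 and 76 macrophage-like cells, 833, 1197 and 1763 B-lineage-like cells and 119, 185 and 76 erythroid-like cells. When the same cells were clustered, KO cells of the granule stage, the mature stage and the monocyte class lay mostly in other clusters than those of the other libraries: cluster 6 held 1256 KO cells, 45 of labelled Het and 0 of labelled WT, cluster 0 held 7, 1309 and 1718, and the mature-stage clusters 20 and 14 held 410, 3 and 0, and 9, 381 and 304. In these classes different clusters are therefore compared, and a difference in the state of the cells and one in the level of a gene cannot be told apart. B-lineage clusters were shared between libraries in unlike numbers. Clusters 8 and 22 held 90, 459 and 586, and 5, 151 and 224 cells, and clusters 4 and 13 held 336, 352 and 674, and 363, 227 and 287. The same limit thus holds in part for B-lineage-like cells.

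Trp53inp1 was called higher in KO in 7 of 7 classes, and the size of the difference varied from class to class. It was widest in monocyte-like cells, where KO had 290.3 CPM (5601 UMIs), labelled Het 20.9 CPM (238 UMIs) and labelled WT 14.7 CPM (116 UMIs). The KO level was 13.9-fold that of labelled Het (12.2 to 15.9) and 19.8-fold that of labelled WT (16.5 to 23.99), and by the smaller log2 ratio the gene was number 4 of 8528 in this class. These intervals do not cover the choice of class and scaling. The log2 ratios, 3.79 and 4.30 here, ran over 6 alternatives from 2.98 to 4.04 over labelled Het. Over labelled WT they ran from 3.35 to 4.58. In monocyte-like cells 5.73% of genes were called higher.

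In macrophage-like cells Trp53inp1 had 545 CPM in KO, 115 CPM in labelled Het and 48.4 CPM in labelled WT, from 788, 76 and 29 UMIs. These were 4.75-fold (3.75 to 6.09) and 11.3-fold (7.78 to 16.9) higher, in a class where 12.9% of genes were called higher.

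Along the neutrophil stages the level grew in each library, and KO was above the others at each. The precursor stage had 63.0 CPM in KO, 12.7 CPM in labelled Het and 23.1 CPM in labelled WT, against a background of 6.63% of genes called higher. The granule stage had 179.8, 57.7 and 69.2 CPM, with 2.96% of genes called higher. The mature stage had 1423, 392 and 277 CPM, with 14.7% called higher and 5.6% lower, and its KO level was the highest of any class in any library.

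B-lineage cells carried the most Trp53inp1 in the libraries labelled Het and WT, and the KO difference was narrow there. The level was 855 CPM in KO, 466 CPM in labelled Het and 360.2 CPM in labelled WT, or 1.84-fold (1.77 to 1.91) and 2.37-fold (2.27 to 2.48) higher, in a class with 9.51% of genes called higher. Erythroid-like cells had 51.1, 22.2 and 16.4 CPM, with 7.06% of genes called higher. In 3 smaller classes with at least 20 cells per library KO was again the highest: stem and multipotent progenitor-like cells had 156, 34.2 and 48.5 CPM, basophil and mast-like cells 87.4, 27.6 and 30.3 CPM, and plasmacytoid dendritic-like cells 273, 66.3 and 93.5 CPM.

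The order of the classes by level therefore differed between libraries. In KO it ran from the mature stage through B-lineage, macrophage-like and monocyte-like cells down to the precursor stage and erythroid-like cells. In labelled WT monocyte-like cells were the lowest of the 10 classes, and in labelled Het only the precursor stage was lower. By their counting intervals, monocyte-like and plasmacytoid dendritic-like cells did not differ in KO, nor did erythroid-like and monocyte-like cells in the libraries labelled Het and WT.

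**Figure D2:**
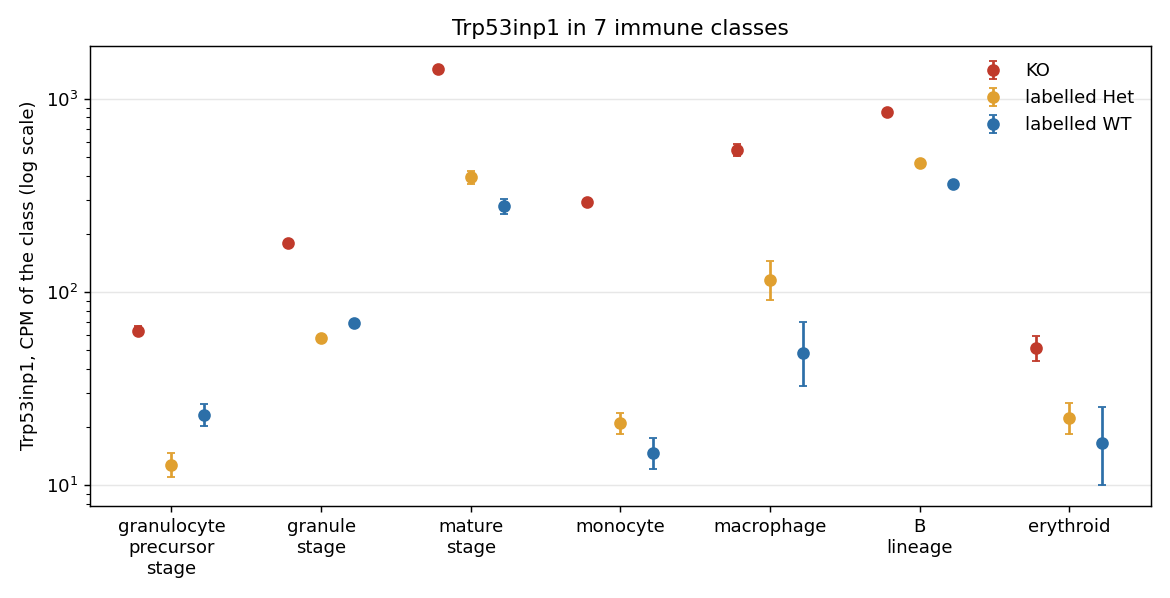
Trp53inp1 level in 7 immune classes, in CPM of the class on a log scale, with KO, labelled Het and labelled WT from left to right in each class and 95% Poisson intervals as bars. The KO point is above both others in every class shown, by the most in monocyte-like cells (290.3 against 20.9 and 14.7 CPM).

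After thinning, the share of cells with Trp53inp1 RNA and the UMIs per such cell were both higher in KO. With every cell thinned to 3000 UMIs, 51.3% of KO monocyte-like cells had a Trp53inp1 UMI (exact interval 47.8 to 54.7), against 5.41% in labelled Het (3.68 to 7.63) and 3.98% in labelled WT (2.54 to 5.91). Without thinning the shares were 89.2%, 22.9% and 13.5%, at median depths of 21617, 18520 and 11962 UMIs. No class known to lack the gene was at hand; erythroid-like cells, a class of low level, gave 5.85% in labelled Het and 6.56% in labelled WT after thinning, so whether monocyte-like cells of those libraries held Trp53inp1 RNA above background was not resolved. The ratios in this class are set against levels that may be background. In the mature stage the thinned shares were 95% in KO, 61.2% in labelled Het and 57.4% in labelled WT, and the cells with a UMI held 5.03, 1.92 and 1.503 of them on average. In B-lineage-like cells the shares were 84.4%, 67.3% and 60.8%. Thinning left out 333 KO cells, 297 of labelled Het and 770 of labelled WT.

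None of the other 9 genes was called higher in KO in any of the 7 classes, and 5 of them were called lower in 1 class or more. Of the regulators, Trp53 and Mdm2 passed the filter in all 7 classes and were called in none. In monocyte-like cells, where Trp53inp1 differed most, Trp53 had 103 CPM in KO, 139.7 CPM in labelled Het and 136 CPM in labelled WT, and Mdm2 had 87.9, 95.9 and 84.1 CPM. In B-lineage-like cells Mdm2 had 215, 157 and 155 CPM, 1.37-fold (1.27 to 1.47) and 1.39-fold (1.29 to 1.501) higher, which missed the rule. In erythroid-like cells Mdm2 had 87.3, 69.1 and 63.2 CPM. Thinned to 3000 UMIs a cell, those log2 ratios were 0.82 and 0.92, which met the rule.

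Cdkn1a was called lower in 4 of 7 classes, the most of the 10 genes. In B-lineage-like cells it was called lower at 7.74 CPM in KO (44 UMIs), 29.5 CPM in labelled Het (356 UMIs) and 60.8 CPM in labelled WT (610 UMIs). The KO level was 0.262 of labelled Het (0.187 to 0.359) and 0.127 of labelled WT (0.0914 to 0.173), in a class with 12.6% of genes called lower. Erythroid-like cells had 14.4, 58.9 and 60.8 CPM, with 8.38% of genes called lower. Here KO was far below a pair of libraries that were alike.

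In monocyte-like cells Cdkn1a had 54.5 CPM in KO, 89.5 CPM in labelled Het and 109 CPM in labelled WT, with 11% of genes called lower. In the granule stage it had 21.2, 33.2 and 44.0 CPM, with 6.23% called lower, but this call was lost with TMM factors (log2 ratios of -0.44 and -0.86) and with size factors. Macrophage-like cells had 246, 124 and 360.3 CPM, with KO between the others. The mature stage had 38.9, 36.0 and 18.1 CPM, and with classes taken from clusters its log2 ratios were 0.60 and 1.81, above the rule. The direction of Cdkn1a was thus not the same in every class.

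Ccng1 was above both other libraries in 5 of 7 classes and met the rule in none. The precursor stage had 109 CPM in KO, 80.1 CPM in labelled Het and 69.0 CPM in labelled WT, and monocyte-like cells had 125, 93.1 and 83.3 CPM. With cells thinned to 3000 UMIs it met the rule in the precursor stage (log2 ratios of 0.70 and 0.75) and in the mature stage (0.70 and 0.64).

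Bax was below both other libraries in 6 of 7 classes and called lower in 2. The granule stage had 19.9 CPM in KO, 35.4 CPM in labelled Het and 42.1 CPM in labelled WT, and this call held under all 6 alternatives run. Monocyte-like cells had 178, 272 and 336 CPM, and that call was lost with TMM factors, size factors and classes from clusters. Macrophage-like cells, at 239, 201 and 280.2 CPM, were the class where KO lay between.

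Bbc3 passed the filter in 6 classes and was below both other libraries in 6 of 7. It was called lower in the precursor stage, at 6.18 CPM in KO, 17.8 CPM in labelled Het and 12.7 CPM in labelled WT, with 11.7% of genes called lower there. Pmaip1 passed in 4 classes and was called in none under the settings used throughout. In the mature stage it had 14.4 CPM in KO, 42.0 CPM in labelled Het and 20.3 CPM in labelled WT, and it was called lower there under 4 of 6 alternatives (log2 ratios of -1.69 and -0.73 with TMM factors, -1.70 and -0.72 with size factors, -1.13 and -0.77 with classes from clusters, and -1.01 over labelled WT with the stricter gate). Its level in monocyte-like cells was 35.9, 64.4 and 36.9 CPM, with KO close to labelled WT.

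Sesn2 was called lower in macrophage-like cells, at 19.4 CPM in KO, 52.9 CPM in labelled Het and 71.7 CPM in labelled WT, from 28, 35 and 43 UMIs and with 10.4% of genes called lower. In the precursor stage it had 7.39, 40.2 and 10.6 CPM, so the library labelled Het stood apart by itself. In the mature stage Sesn2 had 51.2, 70.8 and 77.7 CPM and was called lower with TMM factors (-0.62 and -0.83) and size factors (-0.62 and -0.83). Zmat3 passed in 3 classes and was called lower in macrophage-like cells (9.68, 19.6 and 23.4 CPM, from at most 14 UMIs a library) and in B-lineage-like cells (7.03, 14.2 and 10.7 CPM). The second call was lost with TMM factors, with size factors and without called doublets. Single alternatives gave further calls of lower to Bax in the precursor and mature stages and Bbc3 in monocyte-like and B-lineage-like cells. They did so too for Pmaip1 in the precursor stage and monocyte-like cells, and for Sesn2 in the precursor stage and erythroid-like cells. In macrophage-like cells Bbc3 was called lower under 2 of 6 alternatives, thinned cells and the stricter gate. Zmat3, under the filter in the precursor stage, met the rule for higher there with classes from clusters (0.84 and 1.01). Bbc3 and Pmaip1, under the filter in the granule stage, met the rule for lower there in the main setting and under all 6 alternatives. Over these alternatives the log2 ratios over labelled Het ran from -1.17 to -0.83 for Bbc3 and from -2.67 to -1.76 for Pmaip1.

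In the smallest class shown, plasmacytoid dendritic-like cells with 24 KO cells, 38 of labelled Het and 80 of labelled WT, 2 further genes were called higher: Ccng1 at 201, 112 and 72.1 CPM and Bbc3 at 102, 32.3 and 33.8 CPM. Bax and Sesn2 were called lower. There 11.3% of all genes were called higher and 16.1% lower.

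**Figure D3:**
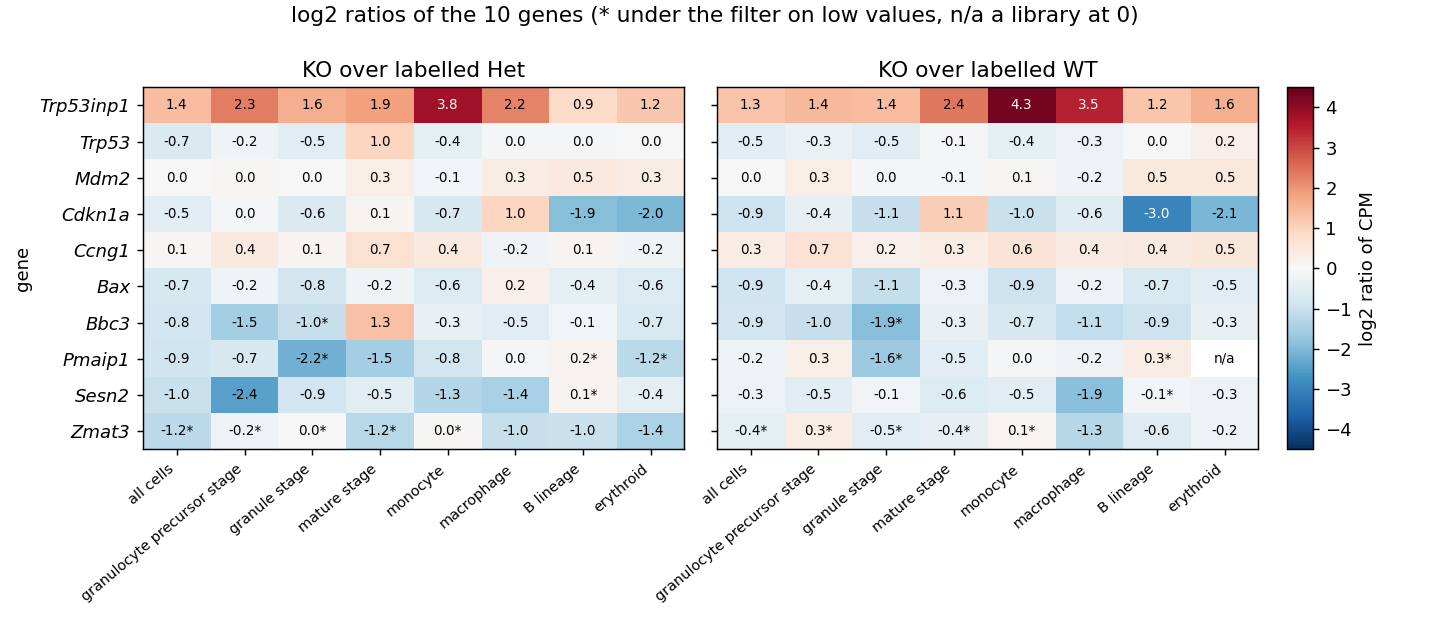
log2 ratios of CPM for the 10 genes (down) over all cells and in 7 classes (across), with KO over labelled Het on the left and KO over labelled WT on the right; red is higher in KO, an asterisk marks a gene under the filter on low values, and n/a a pair with a library at 0. The Trp53inp1 line is red throughout, up to a log2 ratio of 4.3 in monocyte-like cells, while Mdm2 is near 0 and Cdkn1a is mostly blue.

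Cells with division genes made up different shares of the classes. In the precursor stage they were 66.7% of KO cells, 37.1% of labelled Het and 31.5% of labelled WT, in the granule stage 46.9%, 39.6% and 29.6%, in monocyte-like cells 46.3%, 40.5% and 48.7%, and in B-lineage-like cells 13.0%, 41.9% and 35.7%. Levels were therefore also taken within cells that scored for division and cells that did not. In KO, Trp53inp1 was lower in dividing cells than in the others in each of the 4 classes split. The precursor stage ran the other way in the library labelled Het (15.3 CPM in dividing cells and 11.1 CPM in the others). In the library labelled WT it did so only without thinning (24.9 and 22.1 CPM). With each cell thinned to the same depth before gating, labelled Het had 21.6 and 13.7 CPM and labelled WT 19.2 and 20.3 CPM. Non-dividing monocyte-like cells had 488 CPM in KO, 29.5 CPM in labelled Het and 22.6 CPM in labelled WT, and dividing ones 159, 13.0 and 9.57 CPM. Granule-stage cells had 301, 85.9 and 95.4 CPM without division genes and 100.4, 31.8 and 33.5 CPM with them. The KO library was above both others in each of the 8 strata.

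In B-lineage-like cells neither stratum kept the Trp53inp1 call; 7.11% of genes were called higher in dividing cells and 4.7% in the others. Dividing cells had 497 CPM in KO, 342 CPM in labelled Het and 241 CPM in labelled WT, 1.45-fold and 2.06-fold higher. Non-dividing cells had 988, 699.9 and 529 CPM, 1.41-fold and 1.87-fold higher. Both ratios to labelled Het were under 1.5, while the unsplit class gave 1.84. With each cell thinned to 3000 UMIs before gating, dividing cells had 554, 333 and 258 CPM and the others 1030.4, 688 and 519 CPM, and the dividing cells then met the rule.

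Cdkn1a was called lower in both B-lineage strata, at 16.2, 33.9 and 70.9 CPM in dividing cells and 4.59, 21.1 and 46.6 CPM in the others, where 7.03% and 12% of genes were called lower. Over the whole class 10 of 11 division genes that passed were also called lower in KO, and their part in the Cdkn1a difference was not tested. Bax was called lower in both granule-stage strata, at 22.5, 37.7 and 45.9 CPM in dividing cells and 16.04, 32.9 and 39.3 CPM in the others, where 7.77% and 6.88% of genes were called lower.

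**Figure D4:**
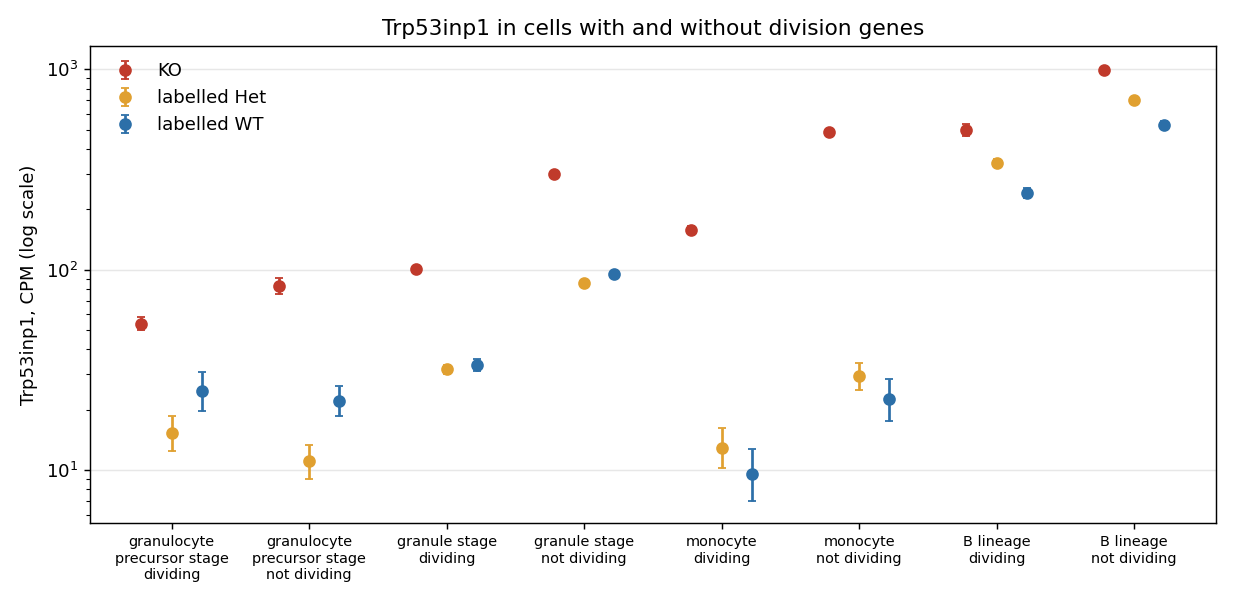
Trp53inp1 level in CPM on a log scale, in cells of 4 classes with and without division genes, with KO, labelled Het and labelled WT from left to right and 95% Poisson intervals as bars. KO is above both others in each stratum, and the gap is narrow in the B-lineage strata (497 against 342 and 241 CPM in dividing cells).

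Within a library, cells with a Trp53inp1 UMI were set against cells without one, all thinned to 3000 UMIs. In KO granule-stage cells Mdm2 had 112 CPM in 1933 cells with Trp53inp1 and 113 CPM in 2753 cells without, a ratio of 0.998 (0.902 to 1.10). Cdkn1a had 11.2 and 20.7 CPM, a ratio of 0.541 (0.400 to 0.724), and the ratios were 0.628 (0.439 to 0.877) in labelled Het and 0.403 (0.297 to 0.537) in labelled WT. Cells with Trp53inp1 thus carried less Cdkn1a in each library.

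Sesn2 went the other way in this stage, with 16.4 CPM in KO cells with Trp53inp1 and 10.8 CPM in those without. Its ratio was 1.52 in KO (1.13 to 2.05), 1.47 in labelled Het (1.13 to 1.89) and 1.83 in labelled WT (1.37 to 2.42). In KO monocyte-like cells the interval of the ratio included 1 for all 9 genes, with Mdm2 at 1.17 (0.896 to 1.53). In KO B-lineage-like cells Mdm2 was at 257 CPM with Trp53inp1 and 168 CPM without, a ratio of 1.53 (1.17 to 2.04), against 1.24 (1.04 to 1.499) in labelled Het and 0.929 (0.787 to 1.10) in labelled WT. Cells are not replicates, and stages within a class were not separated further.

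Among 40 other p53 targets listed from general knowledge, 38 were measured and 20 passed the filter over all cells. None was called higher and 5 (25%) were called lower, beside 2.76% and 13.4% of all genes tested. Their median log2 ratios were -0.25 over labelled Het and -0.34 over labelled WT, beside -0.16 and -0.13 for all genes. Epha2, a receptor tyrosine kinase, had 5.996 CPM in KO, 26.2 CPM in labelled Het and 31.1 CPM in labelled WT. Aen, a nuclease induced during apoptosis, had 14.6, 46.3 and 44.6 CPM. Trp53i11 had 24.7, 52.998 and 98.97 CPM, Pidd1, the scaffold that activates caspase-2, 11.4, 21.5 and 25.3 CPM, and Tigar, a sugar phosphatase, 6.97, 12.7 and 10.6 CPM. Most Trp53i11 UMIs came from B-lineage-like cells (3661 of 4604 in KO, 6036 of 7663 in labelled Het, 7636 of 9563 in labelled WT). In that class Trp53i11 had 644, 500 and 762 CPM and was not called, though it was called lower in macrophage-like cells. Epha2 had 116, 207 and 212 CPM in B-lineage-like cells and was called lower. This class was 10.1%, 15.0% and 18.4% of the libraries. The part of these shares in the all-cell values was not tested.

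Ddit4, an inhibitor of mTORC1 signalling that hypoxia and glucocorticoids also induce, came nearest to a call of higher among the 20 that passed. Over all cells it had 109.6 CPM in KO, 73.1 CPM in labelled Het and 33.8 CPM in labelled WT, just under the rule with a log2 ratio of 0.58 over labelled Het. It was called higher in 5 of 7 classes, at 218, 26.0 and 16.4 CPM in the mature stage and 371, 164 and 132 CPM in B-lineage-like cells. In these 2 classes 14.7% and 9.51% of all genes were called higher. With TMM factors or size factors 2 of the other targets were called higher over all cells, Apaf1 and Ddit4. The share of all genes called under these factors was not counted, so the 2 calls have no background to stand beside. Beneath the filter, with means under 10 CPM, 3 further targets met the 1.5-fold rule for higher. Cd80, a costimulatory ligand, had 13.2 CPM in KO, 4.86 CPM in labelled Het and 3.16 CPM in labelled WT, Perp, a membrane protein, 14.1, 5.48 and 6.65 CPM, and Fas 10.3, 5.28 and 5.99 CPM. More targets beneath the filter met the rule for lower. Ccnd1 had 1.35, 14.8 and 11.7 CPM, and Phlda3, Tnfrsf10b, Gdf15, Ak1, Lif and Trp73 met it at lower levels still.

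In monocyte-like cells 26 of the other targets passed, of which 5 were called higher and 6 lower. The 5 included Ddb2, a DNA damage sensor, at 19.0 CPM in KO, 8.51 CPM in labelled Het and 10.1 CPM in labelled WT, and Fas, the death receptor, at 20.2, 12.5 and 9.49 CPM. The 6 included Ccnd1, cyclin D1, at 2.07, 34.3 and 20.9 CPM, and Aen at 27.3, 86.4 and 95.6 CPM. These shares, 5 and 6 of 26, stand beside 5.73% and 11% of all genes in the class. In the mature stage 4 of 16 were called higher and 0 lower, beside 14.7% and 5.6%. In B-lineage-like cells 5 of 23 were called higher and 2 lower, beside 9.51% and 12.6%. Macrophage-like cells had 2 of 24 higher and 7 lower, beside 12.9% and 10.4%. Erythroid-like cells had 1 of 20 higher and 3 lower, beside 7.06% and 8.38%. The precursor stage had 3 of 21 each way, and the granule stage 1 of 12 each way.

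**Figure D5:**
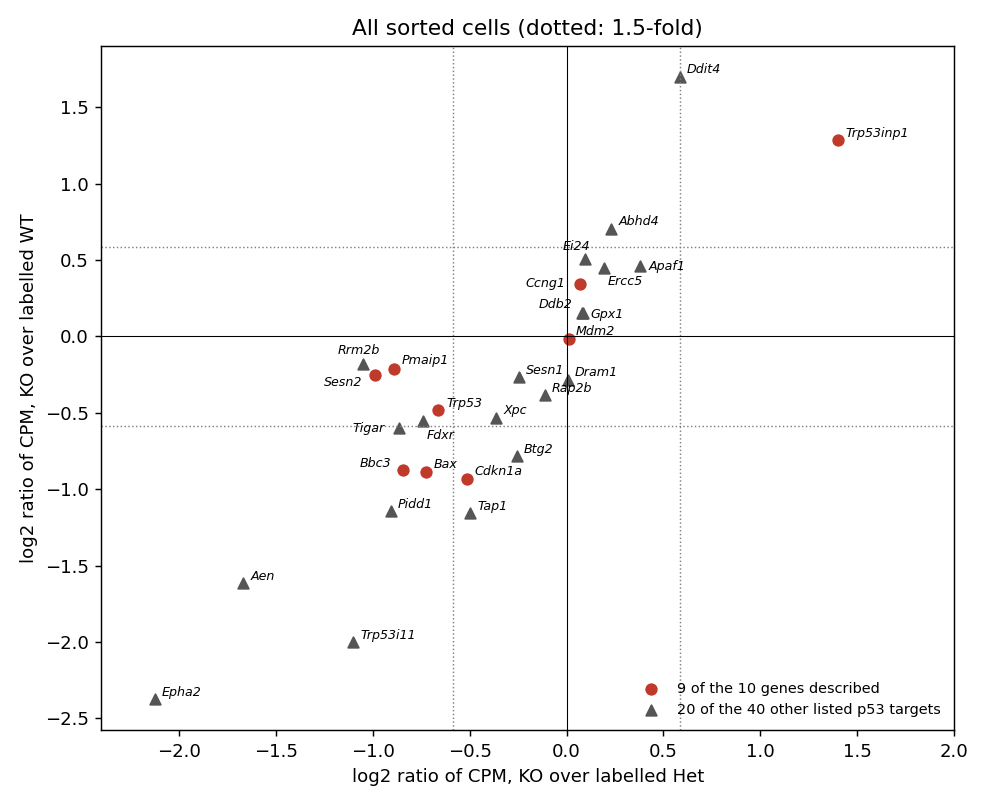
log2 ratio of CPM over all cells, KO over labelled Het (horizontal) against KO over labelled WT (vertical), for 9 of the 10 genes (circles) and 20 of the 40 other listed targets (triangles) that passed the filter; dotted lines mark 1.5-fold, and the axes share the KO library. Trp53inp1 sits at 1.40 and 1.28, Ddit4 at 0.58 and 1.70, and most other genes lie below 0 on both axes.

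Of 20 measured regulators of p53, 17 passed over all cells, with 1 (5.88%) called higher and 3 (17.6%) lower, beside 2.76% and 13.4% of all genes. Cop1, a ubiquitin ligase that can target p53, had 175 CPM in KO, 102 CPM in labelled Het and 84.8 CPM in labelled WT. Trp53bp1, an adaptor at DNA breaks, had 8.20, 19.6 and 17.997 CPM, the nucleolar chaperone Npm1 239, 410.4 and 391 CPM, and the kinase Dyrk2 21.1, 34.04 and 45.5 CPM. Of 9 other BCL2 family genes that passed over all cells, none was called higher. The survival genes Bcl2 (8.70, 20.1 and 18.1 CPM) and Bcl2l1 (83.0, 126 and 147 CPM) were lower, 22.2% beside the same 13.4%. Within classes, Bmf was called higher in the precursor stage, the mature stage, monocyte-like and B-lineage-like cells. Bcl2 was called lower in the precursor stage, monocyte-like and erythroid-like cells, but higher in B-lineage-like cells (26.2, 14.1 and 11.7 CPM). In B-lineage-like cells 3 of 8 family genes that passed were called higher and none lower, beside 9.51% and 12.6% of all genes.

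Of 20 genes of LC3 and GABARAP autophagy that passed, 2 (10%) were called higher, beside 2.76% of all genes, and none lower, at median log2 ratios of 0.09 and 0.06. Map1lc3b, which encodes LC3B, had 234 CPM in KO, 141 CPM in labelled Het and 132 CPM in labelled WT, and Bnip3l, a mitophagy receptor, 90.5, 58.7 and 43.2 CPM. Map1lc3b was called higher in 7 of 7 classes, as Trp53inp1 was, at 333, 166 and 125 CPM in monocyte-like cells. The share of all genes called higher ran from 2.96% in the granule stage to 14.7% in the mature stage. How many genes were called higher in all 7 classes was not counted. In monocyte-like cells Map1lc3b was not alone in its list. There 5 of 19 genes of this list were called higher (Map1lc3a, Map1lc3b, Nbr1, Ulk1 and Bnip3l), beside 5.73% of all genes in the class, and none lower.

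The genes whose level followed Trp53inp1 most closely were sought over 21 points, 7 classes in each of 3 libraries, among 9129 genes. Among them were Crebrf, with a Pearson correlation of 0.9003 on log2(CPM + 5), Klhl24 (0.895), Cyld (0.893), Ypel3 (0.887) and Card6 (0.885). Klhl24, an adaptor of a ubiquitin ligase, had 155 CPM in KO, 95.4 CPM in labelled Het and 80.9 CPM in labelled WT over all cells, and 223, 69.6 and 39.8 CPM in monocyte-like cells. Not all of these genes were that much higher in KO. Over all cells Cyld had 74.1, 53.1 and 63.0 CPM, and Ypel3 had 151, 121 and 170 CPM, with KO between the others. Of the 9 other genes Mdm2 was at 0.7402 and the rest between -0.466 and -0.0517. The points share libraries, depth and cell classes, and the values are a description.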

How the data were processed

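UMI counts were deposited by the authors as 1 matrix per library, not normalised, and were made with Cell Ranger 7.0.0 against mm10, per the submitters' processing notes. Nothing read here names the probe set. No barcode was removed, and doublets called by Scrublet (298 KO, 186 labelled Het, 273 labelled WT) were kept except in 1 alternative. Each cell was gated by its mean scaled marker level, with a best class score of at least 0.2 and a lead of at least 0.05 over the next class; the same minimum of 0.2 on division genes split classes into strata. Class names were rebuilt here and may differ from the study's. UMIs were summed per library and class and given as CPM with exact Poisson intervals; for ratios the 95% intervals are conditional binomial, and log2 ratios have 0.5 counts added. Shares carry exact Clopper-Pearson intervals. The calling code was tested on simulated data. Alternatives used TMM factors (edgeR 4.0.16), size factors (DESeq2 1.42.0, R 4.3.3), totals without the 50 highest genes, thinning to 3000 UMIs, Leiden clusters (scanpy 1.11.5, leidenalg 0.10.2) and a stricter gate with a lead of 0.15. The remaining steps ran in Python 3.11.15 with scipy 1.17.1, numpy 2.4.6 and pandas 2.3.3. The 10 genes and all gene lists were chosen with earlier results of these data known. Named besides the 10 genes were up to 6 genes per list past the 1.5-fold rule over all cells or the neutrophil lineage, and the 6 genes most like Trp53inp1, of which 1 is not reported here; other genes, and further values of named ones, were chosen after their values were seen. Of the lists, Rps27l, Pvt1, Rpl5, Rpl11, Bcl2a1a and Ccnb1, and of the monocyte markers Cx3cr1 and Ly6c2, were not analysed here.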

Additional observations from a re-analysis of the deposited data

How the results depend on the processing

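The log2 ratio of Trp53inp1 over all cells, 1.40 over labelled Het and 1.28 over labelled WT, was 1.74 and 1.56 with TMM factors, 1.71 and 1.56 with size factors, 1.47 and 1.64 with thinned cells, 1.49 and 1.35 without the highest genes, 1.34 and 1.40 with classes weighted equally, and 1.41 and 1.29 without doublets. TMM and size factors moved the median of all genes to 0.18 and 0.15 over labelled Het, and to 0.15 and 0.14 over labelled WT. Of the 10 genes, the count called lower went to 0 with TMM factors, 0 with size factors and 0 at a fold of 2, from 2. Thinned cells also ended both calls (Bax and Bbc3), and equal class weights added Cdkn1a. The count called higher was 1 under each of these. Trp53inp1 was called in 7 of 7 classes under the 6 alternatives of scaling, thinning, doublets, clusters and gate; at a fold of 2 it would not be called in B-lineage-like cells, at 1.84-fold over labelled Het. Of the other targets, called higher were 2 with TMM factors, 2 with size factors, 3 at a minimum of 1 CPM and 3 with no filter (0 in the report). Called lower were 3 with TMM factors, 3 at a fold of 2, 9 at 1 CPM and 12 with no filter (5 in the report). At a fold of 2, 0.624% of all genes were called higher and 4.67% lower. Under the other settings the share of all genes called was not counted, so these counts of genes have no background. The cause of these moves was not tested, apart from the larger number of genes that passed without a filter (34 and 38). Of the Trp53inp1 ratios and the counts of calls above, 21 moved and 17 did not. A ratio moved when it left its counting interval, and a count when it changed by more than 1.5-fold or to or from 0. Of the remaining values for single genes and classes, 735 moved by less than their counting interval, 229 by more, and 0 turned a called ratio to the other direction. Calls that were lost or gained, as given for single genes, are not in that 0. No paired analysis was possible because each genotype had 1 library, and for the same reason no replicate could be left out. Depth limits Zmat3, Bbc3 and Pmaip1 in the smaller classes, where sums of under 30 UMIs a library were common.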
